A study of Mus musculus with 9 samples.

Results

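A group of 10 genes of the defense against oxidative stress and metals was measured by RNA sequencing in brain tissue of mice under sevoflurane. The 10 were taken by symbol from a deposited table of 49585 genes, and each of them passed the filter on low counts. They are the metallothioneins Mt1, Mt2 and Mt3, the cystine importer gene Slc7a11, the glutathione synthesis genes Gclc and Gclm, the thioredoxin system genes Txnrd1 and Srxn1, and Nqo1 and Hmox1. The mice were wild-type male C57BL/6J animals, an inbred laboratory strain, aged 8 to 15 weeks. Doses are given in MAC, the minimum alveolar concentration, the unit for inhaled anesthetics. Control mice (CTRL) moved freely for 120 min and breathed no sevoflurane. In the 0.7 MAC group, sevoflurane was held at 0.7 MAC for 120 min. In the 2.0 MAC group it was held at 2.0 MAC for the first 30 min and at 0.7 MAC for a further 90 min. Sevoflurane was given in 100% oxygen, and the sources used here do not state the oxygen that the control mice breathed. The study's methods also describe tracheal intubation under sevoflurane and a heating pad. Sevoflurane, oxygen and these procedures therefore cannot be told apart in a comparison with CTRL. Each group had 3 libraries. The sources do not say that the 3 libraries of a group are different mice, so a p-value here is set against variation from library to library, which may be technical in part.

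Metallothioneins are small cysteine-rich proteins that bind zinc and copper. In the brain, Mt1 and Mt2 are best known from astrocytes, and their transcription is raised by zinc through the factor MTF1, which binds metal response elements, and by glucocorticoids. Mt3 is the brain form, known from astrocytes and from neurons that store zinc in vesicles, and it responds little to metals. The other genes are classic targets of the transcription factor NRF2, which is kept low by KEAP1 and, under oxidative or electrophilic stress, binds antioxidant response elements together with small MAF proteins.

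The 3 metallothionein genes lie next to each other on the forward strand of chromosome 8 in GRCm38, Mt3 at 94152607 to 94154146, Mt2 at 94172664 to 94173568 and Mt1 at 94179082 to 94180327. The gap from Mt3 to Mt2 is 18517 bases and that from Mt2 to Mt1 is 5513 bases, so the 3 genes span 27721 bases. Their promoter windows from RefSeq on GRCm38.p6 are shown because Mt1 and Mt2 moved together in the data and Mt3 did not pass the test. Each window covers 300 bases, from 250 before the RefSeq start, at chr8:94178839-94179138 for Mt1, chr8:94172368-94172667 for Mt2 and chr8:94152357-94152656 for Mt3, all on the forward strand. Capitals mark the core of the metal response element, TGCACNC or TGCGCNC, searched on both strands.
Mt1: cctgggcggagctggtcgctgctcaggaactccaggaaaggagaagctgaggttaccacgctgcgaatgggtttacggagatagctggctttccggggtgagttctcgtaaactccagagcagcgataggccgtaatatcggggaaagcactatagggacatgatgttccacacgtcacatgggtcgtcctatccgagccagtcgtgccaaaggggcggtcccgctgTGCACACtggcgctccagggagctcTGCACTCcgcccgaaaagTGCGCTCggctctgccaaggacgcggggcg
Mt2: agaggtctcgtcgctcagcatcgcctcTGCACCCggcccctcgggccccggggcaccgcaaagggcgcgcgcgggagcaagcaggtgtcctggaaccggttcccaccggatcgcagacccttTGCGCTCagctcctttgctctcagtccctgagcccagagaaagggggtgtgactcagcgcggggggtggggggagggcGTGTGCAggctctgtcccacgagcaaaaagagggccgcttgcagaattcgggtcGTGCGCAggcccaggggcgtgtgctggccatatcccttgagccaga
Mt3: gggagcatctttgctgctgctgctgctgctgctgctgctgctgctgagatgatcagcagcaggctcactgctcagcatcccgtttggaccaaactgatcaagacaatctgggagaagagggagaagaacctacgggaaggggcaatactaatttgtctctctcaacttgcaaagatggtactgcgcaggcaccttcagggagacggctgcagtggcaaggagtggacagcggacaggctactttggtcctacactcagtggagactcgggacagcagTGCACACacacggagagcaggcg
Counted to the leftmost base of each match, the Mt1 window held 3 matches, at 23 bases before and 2 and 20 bases after the start, and the Mt2 window held 4, at 223, 128 and 50 bases before and 4 bases after it. The Mt3 window held 1, at 27 bases after the start. Of all 32851 RefSeq windows of this length, 25.7% held at least 1 match, 1.97% at least 3 and 0.52% at least 4. The antioxidant response element core TGACNNNGC, on both strands, was present once in the windows of Mt2, Srxn1 and Gclm and in 1 of 3 windows of Txnrd1, against 12.4% of all windows. In Gclm, whose window also held 3 metal response element matches, the match overlapped 1 of these. Srxn1 held 1 metal response element match, the windows of Slc7a11 and Nqo1 held neither motif, and Hmox1 and Gclc had no window in the table. The counts hold for these windows at RefSeq starts, and sequence outside the windows was not searched. A match is a stretch of letters and no measure of binding.

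Of the other 7 genes, Hmox1 (75093621 to 75100589, forward strand) and Nqo1 (107388225 to 107403206, reverse) also lie on chromosome 8 in GRCm38. Gclm (122245557 to 122270732, forward) and Slc7a11 (49892526 to 50443614, reverse) lie on chromosome 3, Gclc (77754535 to 77794485, forward) on chromosome 9, Txnrd1 (82859206 to 82897724, forward) on chromosome 10 and Srxn1 (152105516 to 152111376, forward) on chromosome 2.

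The libraries held 5321491 to 7178568 exon-based reads (median 6382725), and introns took 59.56% to 60.91% of all gene reads in CTRL, 60.04% to 62.02% under 0.7 MAC and 58.87% to 59.08% under 2.0 MAC, the group with the lowest shares. The labels name the tissue hypothalamus, their extraction text also names whole brain and neurospheres, and the study's methods describe what was left after removal of the cortex, cerebellum and olfactory bulb. Hypothalamic markers were present, with summed levels of 60.7 to 116 CPM over 12 genes, beside striatum markers at 537 to 1690 CPM over 12 genes and cortex and hippocampus markers at 675 to 1460 CPM over 14 genes. The 2.0 MAC libraries stood apart in this respect. Their striatum markers summed to 537 to 628 CPM, against 1090 to 1690 in the 0.7 MAC libraries and 1340 to 1690 in CTRL, and all 12 fell against either group. Cortex and hippocampus markers fell in 10 of 14 genes against 0.7 MAC and in 5 of 14 against CTRL. Hypothalamus markers were higher in the 2.0 MAC libraries, at 107 to 116 CPM against 60.7 to 73.5 under 0.7 MAC and 71.7 to 91 in CTRL, and 6 of 10 tested rose against 0.7 MAC and 3 of 10 against CTRL. Hindbrain markers, at 306 to 343 CPM against 180 to 190 and 196 to 278, rose in 4 of 7 tested genes against 0.7 MAC and in 3 of 7 against CTRL, and 1 of 7 fell between 0.7 MAC and CTRL. Dose and make-up of the tissue pieces therefore cannot be told apart in the comparisons with the 2.0 MAC group. Between 0.7 MAC and CTRL, cortex and hippocampus markers rose in 2 of 14 genes (median log2 fold change 0.38) and oligodendrocyte markers fell in 5 of 12. Striatum and hypothalamus markers passed in 0 of 12 and 0 of 10 there. Make-up was therefore not shown to be equal in that comparison either. No gene of these lists was at 0 throughout a group.

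Per length of exon, the metallothioneins were the most abundant of the 10 genes. Mt3 averaged 112 normalized CPM per kilobase over 9 libraries (range 99 to 123), above 98.8% of tested genes, Mt2 averaged 93.7 (64.6 to 134) and Mt1 averaged 56.6 (46 to 69.4). Srxn1, which encodes the enzyme that repairs overoxidized peroxiredoxins, followed at 33 (30.3 to 37), and Txnrd1, the cytosolic thioredoxin reductase gene, at 21.5 (20.1 to 23.7). Gclc, the catalytic subunit gene of glutamate-cysteine ligase, averaged 15.8 (13.4 to 18.4) and Slc7a11, the light chain gene of the cystine-glutamate exchanger, 7.37 (5.96 to 9.37). The lowest levels were those of Gclm, the modifier subunit gene of the same ligase, at 3.64 (3.21 to 4.01), the quinone reductase gene Nqo1 at 2.94 (1.87 to 3.9) and the heme oxygenase gene Hmox1 at 2.12 (1.4 to 2.58), the last above only 21.5% of tested genes. The ranges of Mt3 and Mt2, of Mt2 and Mt1, of Gclm and Nqo1 and of Nqo1 and Hmox1 overlapped, whereas the ranges of the other neighbors in this order did not. In the plot of levels per exon length, Mt2 reached the Mt3 range in the 3 libraries of 2.0 MAC alone, at 134, 101 and 109, and its other 6 libraries lay below it, at 64.6 to 93. The order of Mt2 and Mt1 depends on the annotated exon lengths, 588 bases for Mt2 and 1246 bases for Mt1, the latter equal to the whole span of the gene. In CPM, without division by length, Mt1 was above Mt2, with means of 63.5 against 45.3 in CTRL, 66.0 against 52.5 under 0.7 MAC and 82.1 against 67.5 under 2.0 MAC. The Gclm level depends on how reads are assigned, since only 23.3% of its exon reads matched 1 place in the genome. Its exon-based reads, 121 to 172 per library, left out most of the others, and all its exon reads numbered 553 to 701. For the other 9 genes, 95.4% (Mt2) to 100% of exon reads matched uniquely.

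**Figure D1:**
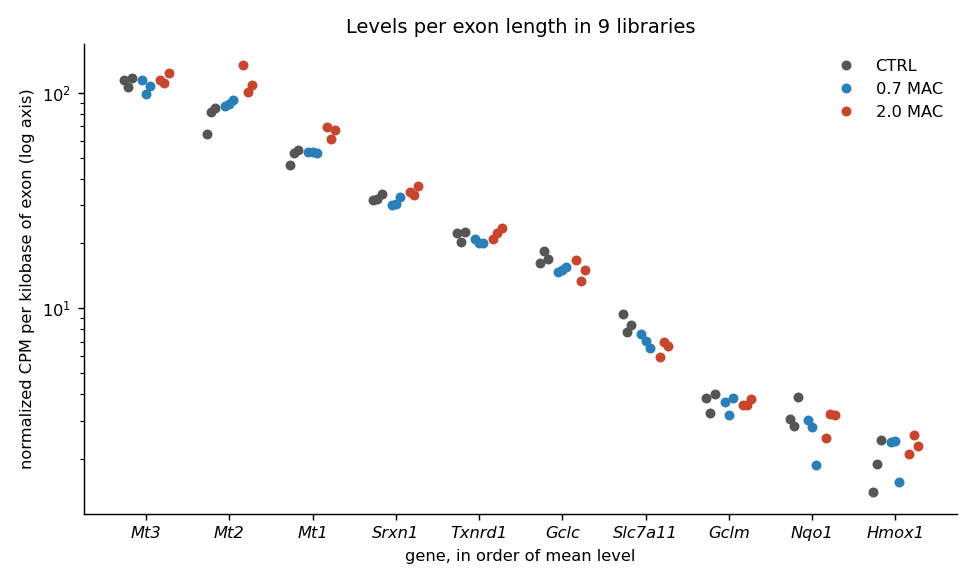
Levels of the 10 genes in each of 9 libraries, as normalized CPM per kilobase of exon on a log axis, in order of their mean. Points are single libraries colored by group; Mt3, Mt2 and Mt1 lie highest, at means of 112, 93.7 and 56.6, and Hmox1 lies lowest, at 2.12.

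Mt1 and Mt2 were higher in the 2.0 MAC libraries than in either other group, Slc7a11 was lower in the 2.0 MAC libraries than in CTRL, and none of the 10 passed the test between 0.7 MAC and CTRL. In the comparison of 2.0 MAC with CTRL, 3 of 10 genes passed an adjusted p of 0.05 in edgeR's quasi-likelihood test, against 9.78% of the 14140 tested genes. Of these, 2 rose (3.36% of tested genes rose) and 1 fell (6.42% fell). In that of 2.0 MAC with 0.7 MAC, 2 rose, against 5.98% of tested genes, and 0 fell, against 8.73%. Between 0.7 MAC and CTRL, 0 of 10 passed in edgeR and 0 in DESeq2, against 1.63% of tested genes (0.884% rose and 0.743% fell). There 2 of the 10, Slc7a11 and Gclc, had an unadjusted p under 0.05. They ranked 676 and 1940 among the 14140 tested genes. Such genes numbered 4 of 10 between 2.0 MAC and CTRL and 3 of 10 between 2.0 MAC and 0.7 MAC. The share of all genes at this threshold was not set beside such counts, here or for the gene lists below. Nothing is read from them. None of the 10 reached a 2-fold change in any comparison. Of all tested genes, 1.36% passed both thresholds between 2.0 MAC and CTRL. The shares were 1.44% between 2.0 MAC and 0.7 MAC and 0.325% between 0.7 MAC and CTRL. The median log2 fold change of the 10 was 0.04 between 2.0 MAC and CTRL, 0.13 between 2.0 MAC and 0.7 MAC and -0.07 between 0.7 MAC and CTRL, beside 0.002, 0.004 and -0.003 over all tested genes. Each group serves in 2 of the comparisons, so they are not independent of each other.

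**Figure D2:**
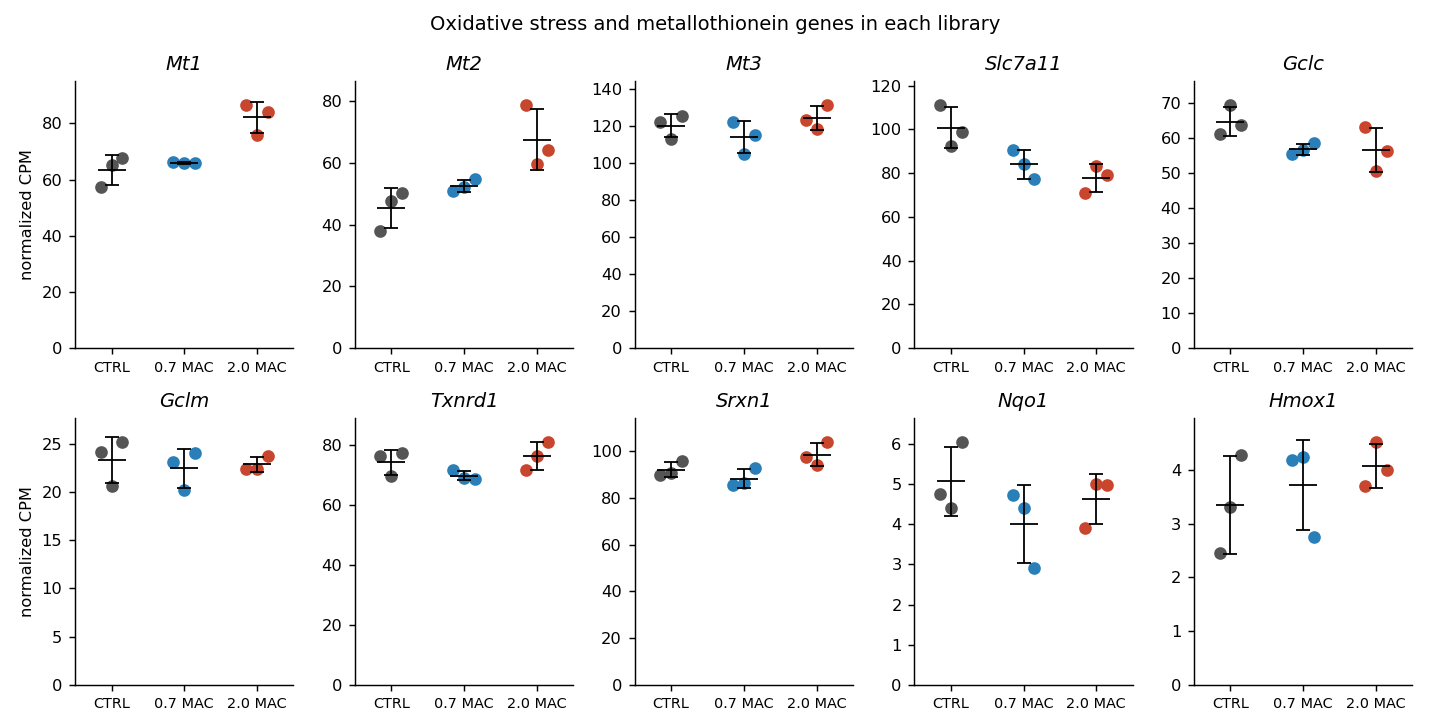
Normalized CPM of each of the 10 genes in every library, with the mean and SD of each group of 3 as a line and bars; each axis starts at 0 and has its own scale. All 3 libraries of 2.0 MAC lie above the other 6 for Mt1 (75.9 to 86.4 against 57.3 to 67.7) and for Mt2 (59.6 to 78.6 against 38.0 to 54.7), and all 3 lie below the CTRL libraries for Slc7a11 (70.7 to 83.1 against 92.4 to 111).

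Mt1 was at 57.3, 65.3 and 67.7 CPM in the CTRL libraries, 66.3, 65.9 and 65.7 CPM under 0.7 MAC and 86.4, 75.9 and 84.0 CPM under 2.0 MAC. The 2.0 MAC libraries were the 3 highest of 9, and the 0.7 MAC libraries lay within the CTRL range. The mean rose from 63.5 ± 5.45 CPM in CTRL (SD, n = 3) to 82.1 ± 5.53 CPM under 2.0 MAC, 1.29-fold (95% interval 1.15 to 1.44), or 0.37 on the log2 scale (standard error 0.08, adjusted p = 0.00522). Against the 0.7 MAC mean of 66.0 ± 0.301 CPM the rise was 1.24-fold (1.11 to 1.39), or 0.31 on the log2 scale (standard error 0.08, adjusted p = 0.00942). The difference between 0.7 MAC and CTRL, 0.05 on the log2 scale (95% interval -0.11 to 0.22), did not pass the test, with an adjusted p = 0.804. The rise against CTRL passed under each of the 21 alternatives that could be fitted for Mt1 (adjusted p 0.000169 to 0.0366). That against 0.7 MAC was lost in 1 of 21, without 2.0 MAC replicate 1, at a log2 fold change of 0.28 (adjusted p = 0.0559; range over the alternatives 0.0016 to 0.0559).

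Mt2 gave 38.0, 47.7 and 50.2 CPM in CTRL, 50.8, 52.0 and 54.7 CPM under 0.7 MAC and 78.6, 59.6 and 64.2 CPM under 2.0 MAC. The 3 groups did not overlap anywhere, with CTRL lowest and 2.0 MAC highest. From CTRL to 2.0 MAC the mean rose from 45.3 ± 6.43 to 67.5 ± 9.95 CPM, 1.48-fold (1.26 to 1.74), the largest fold change among the 10 genes in any comparison, at 0.57 on the log2 scale (standard error 0.11, adjusted p = 0.00307). Against 0.7 MAC (52.5 ± 1.97 CPM) the 2.0 MAC mean rose 1.28-fold (1.09 to 1.5), by 0.36 on the log2 scale (standard error 0.11, adjusted p = 0.0337). The step from CTRL to 0.7 MAC, 0.21 on the log2 scale (95% interval -0.03 to 0.45), did not pass the test (adjusted p = 0.393), although the groups did not overlap. The rise against CTRL passed in 21 of 22 alternatives and was lost only with intron reads, of which Mt2 has 3 to 18 per library (log2 fold change 1.02, adjusted p = 0.239; range over the alternatives 1.62e-08 to 0.239). The rise against 0.7 MAC was less stable and was lost in 8 of 22 alternatives (adjusted p 0.000889 to 0.596). It was at 0.24 (adjusted p = 0.186) without 2.0 MAC replicate 1, the library with the highest Mt2 level, 0.33 (adjusted p = 0.106) without 0.7 MAC replicate 1, 0.35 (adjusted p = 0.066) without 0.7 MAC replicate 2 and 0.39 (adjusted p = 0.0517) without 2.0 MAC replicate 3. An antisense transcript, Gm45774, overlaps Mt2 in the GENCODE M21 annotation, and the sources used here do not say whether reads were counted by strand.

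Mt3 was the one metallothionein whose groups overlapped throughout, at 122, 113 and 125 CPM in CTRL, 122, 105 and 115 CPM under 0.7 MAC and 123, 118 and 131 CPM under 2.0 MAC. Its log2 fold change was 0.05 (95% interval -0.09 to 0.19, adjusted p = 0.739) between 2.0 MAC and CTRL, 0.12 (-0.02 to 0.26, adjusted p = 0.284) between 2.0 MAC and 0.7 MAC and -0.07 (-0.21 to 0.07, adjusted p = 0.685) between 0.7 MAC and CTRL. Compared with CTRL, the intervals of Mt1 (0.21 to 0.53) and Mt2 (0.34 to 0.80) under 2.0 MAC lay above that of Mt3. Compared with 0.7 MAC, those of Mt1 (0.15 to 0.48) and Mt2 (0.13 to 0.58) under 2.0 MAC overlapped that of Mt3. The differences between the genes themselves were not tested. The ratio of Mt2 to Mt1 reads, which no scaling of libraries can move, was 0.663, 0.730 and 0.741 in CTRL, 0.767, 0.790 and 0.832 under 0.7 MAC and 0.910, 0.785 and 0.765 under 2.0 MAC. Every sevoflurane library was above every CTRL library in this ratio. The log2 ratio was 0.16 higher under 0.7 MAC and 0.20 higher under 2.0 MAC than in CTRL (both p = 0.1 in a two-sided exact permutation test, the smallest p that 3 against 3 libraries allow, and 0.3 adjusted over 6 such comparisons). The ratio under 2.0 MAC differed from that under 0.7 MAC by 0.04 on the log2 scale (exact permutation p = 0.9, adjusted 0.9), a value that turned to -0.04 without 2.0 MAC replicate 1.

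Slc7a11, which brings in the cystine used for glutathione, moved the other way. It was at 111, 92.4 and 98.9 CPM in CTRL, 90.4, 84.1 and 77.4 CPM under 0.7 MAC and 70.7, 83.1 and 79.3 CPM under 2.0 MAC. All 6 sevoflurane libraries lay below all 3 CTRL libraries, and the sevoflurane groups overlapped. From CTRL to 2.0 MAC the mean of Slc7a11 fell from 101 ± 9.56 to 77.7 ± 6.37 CPM, to 0.772 of the control level (95% interval 0.683 to 0.873), or -0.37 on the log2 scale (standard error 0.08, adjusted p = 0.00911). The difference between 0.7 MAC and CTRL was -0.26 on the log2 scale (-0.44 to -0.09, adjusted p = 0.123), and that between 2.0 MAC and 0.7 MAC was -0.11 (-0.29 to 0.07, adjusted p = 0.453). The fall under 2.0 MAC was lost in 7 of 22 alternatives (adjusted p 4.05e-05 to 0.565), at -0.30 (adjusted p = 0.0611) without CTRL replicate 1, the library with the highest Slc7a11 level, and at -0.31 (adjusted p = 0.0566) without 2.0 MAC replicate 1. It also did not pass when intron reads were counted with the exon reads (-0.30, adjusted p = 0.165). With no filter on low counts the difference between 0.7 MAC and CTRL passed the test (adjusted p = 0.017; range over the alternatives 0.017 to 0.281).

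The subunit genes of glutamate-cysteine ligase, the first enzyme of glutathione synthesis, did not pass the test in any comparison. Gclc was at 61.1, 69.4 and 63.8 CPM in CTRL, 55.4, 56.7 and 58.5 CPM under 0.7 MAC and 63.1, 50.5 and 56.3 CPM under 2.0 MAC. The 0.7 MAC libraries lay below CTRL, with a log2 fold change of -0.19 (95% interval -0.36 to -0.01, adjusted p = 0.292), and the 2.0 MAC libraries overlapped CTRL, with -0.20 (-0.38 to -0.02, adjusted p = 0.171). Unique gene reads, which include introns, brought the former past the threshold at -0.22 (adjusted p = 0.0453; range over the alternatives 0.0453 to 0.639). Gclm ranged from 20.2 to 25.2 CPM over all 9 libraries, and its groups overlapped. Its log2 fold changes were -0.03 (-0.25 to 0.20) between 2.0 MAC and CTRL, 0.03 (-0.20 to 0.25) between 2.0 MAC and 0.7 MAC and -0.06 (-0.28 to 0.17) between 0.7 MAC and CTRL. On the linear scale its intervals ran from 0.824-fold to 1.19-fold over the 3 comparisons. The Gclm to Gclc read ratio was 0.297 to 0.397 in CTRL, 0.356 to 0.417 under 0.7 MAC and 0.356 to 0.444 under 2.0 MAC, and the differences in log2 ratio, 0.04 to 0.17, had exact permutation p-values of 0.4 to 0.6 (0.72 adjusted).

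In the thioredoxin system, Srxn1 was at 89.9, 90.7 and 95.8 CPM in CTRL, 85.5, 86.4 and 93.0 CPM under 0.7 MAC and 97.4, 94.3 and 104 CPM under 2.0 MAC. The 2.0 MAC libraries lay above the 0.7 MAC libraries and overlapped CTRL. The log2 fold change between 2.0 MAC and 0.7 MAC, 0.16 (standard error 0.06, 95% interval 0.02 to 0.30), did not pass the test (adjusted p = 0.113). It passed under 4 of 22 alternatives, at 0.20 under upper-quartile scaling (adjusted p = 0.0468) and library totals without TMM (adjusted p = 0.0476) and at 0.24 to 0.26 in limma on log2 RPKM (range over the alternatives 0.0169 to 0.964). Txnrd1 was at 76.3, 69.6 and 77.3 CPM in CTRL, 71.6, 69.1 and 68.8 CPM under 0.7 MAC and 71.8, 76.3 and 81.1 CPM under 2.0 MAC. Here too the 2.0 MAC libraries lay above those of 0.7 MAC, by a log2 fold change of 0.13 (-0.02 to 0.28, adjusted p = 0.251), and overlapped CTRL, with 0.04 (-0.11 to 0.19). Txnrd1 passed between 2.0 MAC and 0.7 MAC only in the limma fits (adjusted p = 0.0466 and 0.047; range over the alternatives 0.0466 to 0.576).

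Nqo1 and Hmox1, the genes most often read as reporters of NRF2 activity, were rare in this tissue. Nqo1 had 19 to 41 reads per library and Hmox1 15 to 30, and their standard errors, 0.23 to 0.26 on the log2 scale, exceeded the 0.06 to 0.11 of the other 8 genes. Hmox1 was at 2.46, 3.31 and 4.28 CPM in CTRL, 4.18, 4.24 and 2.76 CPM under 0.7 MAC and 3.71, 4.52 and 4.00 CPM under 2.0 MAC. Nqo1 was at 4.75, 4.41 and 6.05 CPM in CTRL, 4.74, 4.40 and 2.91 CPM under 0.7 MAC and 3.90, 5.00 and 4.97 CPM under 2.0 MAC. All groups overlapped for both genes. The 95% intervals of the log2 fold change between 2.0 MAC and CTRL were -0.28 to 0.83 for Hmox1 and -0.61 to 0.36 for Nqo1, which corresponds to 0.826-fold to 1.78-fold and 0.654-fold to 1.28-fold.

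**Figure D3:**
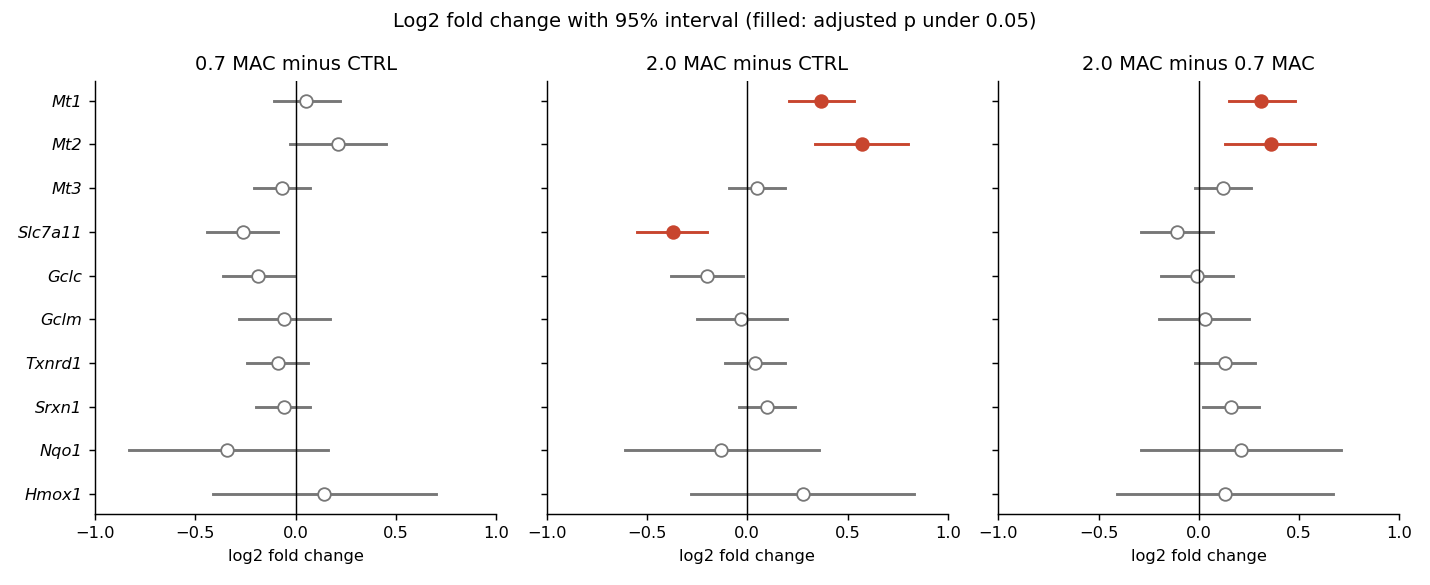
Log2 fold change of each gene in the 3 comparisons, with its 95% interval; filled red points passed an adjusted p of 0.05 in edgeR. Mt1 and Mt2 lie to the right of 0 in both comparisons with the 2.0 MAC group (0.31 to 0.57), Slc7a11 lies to the left against CTRL (-0.37), and the widest intervals are those of Hmox1 and Nqo1.

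By groups that did not overlap, 4 of 10 genes separated 2.0 MAC from 0.7 MAC, namely Mt1, Mt2, Srxn1 and Txnrd1, all upward, against 31.3% of all tested genes (14.9% upward). The comparison of 2.0 MAC with CTRL gave 3 of 10, Mt1 and Mt2 upward and Slc7a11 downward, against 28.3% (13.1% upward and 15.2% downward), and between 0.7 MAC and CTRL 3 of 10, Mt2 upward and Slc7a11 and Gclc downward, against 18% (8.8% upward and 9.25% downward). The upward shares were above those of all genes in each comparison, and the downward share was above it only between 0.7 MAC and CTRL. These counts over 10 genes were not tested, and nothing about the group is read from them. Log2 fold changes were above 0 in 8 of 10 genes between 2.0 MAC and 0.7 MAC, in 6 of 10 between 2.0 MAC and CTRL and in 3 of 10 between 0.7 MAC and CTRL. edgeR's biological coefficient of variation, an estimate of the variation between libraries beyond counting noise, was 4.97% (Srxn1) to 10.6% (Hmox1). Its median over all tested genes was 6.72%. The measured spread also holds counting noise. Hmox1 was at 3.35 ± 0.912 CPM in CTRL, 3.73 ± 0.838 under 0.7 MAC and 4.08 ± 0.41 under 2.0 MAC (SD, n = 3).

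Reads from introns stem largely from unspliced RNA, and they differed widely in number between these genes. They made up 0.7% of gene reads in Mt1, 2.7% in Mt2, 4.2% in Mt3 and 5.5% in Srxn1, all short genes, and 42.6% in Txnrd1, 44.0% in Slc7a11 and 51.7% in Gclc. The annotated exons of Mt1, 1246 bases, cover its whole span, so reads from unspliced Mt1 RNA count as exon reads. Its share of 0.7% is therefore no measure of unspliced Mt1 RNA. Of the 8 genes with enough intron reads for edgeR's test, 0 passed in any comparison, against 6.86% (2.0 MAC to 0.7 MAC), 4.23% (0.7 MAC to CTRL) and 10% (2.0 MAC to CTRL) of the genes tested on introns. Slc7a11 intron reads differed by -0.48 on the log2 scale between 0.7 MAC and CTRL (standard error 0.19, adjusted p = 0.177) and by -0.20 between 2.0 MAC and CTRL (standard error 0.19, adjusted p = 0.565). Gclc intron reads differed by -0.25 between 0.7 MAC and CTRL (standard error 0.07, adjusted p = 0.0637). At an unadjusted p under 0.05 there were 2 of 8 between 0.7 MAC and CTRL, Gclc and Slc7a11, 1 of 8 between 2.0 MAC and CTRL, Gclc, and 0 of 8 between 2.0 MAC and 0.7 MAC. The share of all genes at this unadjusted p was not set beside these counts, and nothing is read from them. Mt1, with 0 to 6 intron reads per library, could not be tested this way.

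The metallothioneins are abundant in astrocytes, so their levels were set beside 16 astrocyte markers. In bulk tissue, fewer cells of a type and less RNA per cell cannot be told apart. From 0.7 MAC to 2.0 MAC, 12 of the 16 markers rose and 2 fell, with a median log2 fold change of 0.24, between 2.0 MAC and CTRL 5 rose and 1 fell (median 0.17), and between 0.7 MAC and CTRL 0 of 16 passed in edgeR or DESeq2 (median -0.07), with 4 at an unadjusted p under 0.05, 2 in each direction. Gfap, the astrocyte filament gene, rose by a log2 fold change of 0.52 and 0.50 in the comparisons of 2.0 MAC with 0.7 MAC and CTRL (adjusted p = 0.00059 and 0.00134), whereas Slc1a3, an abundant glutamate transporter gene, had -0.41 against 0.7 MAC (adjusted p = 0.000916). The summed level of the list did not follow its median, at 8490 to 8790 CPM under 2.0 MAC, 8560 to 9350 under 0.7 MAC and 8750 to 9230 in CTRL. The mean log2 level of the 16 markers was then subtracted in each library. By this measure Mt2 was 0.41 higher under 2.0 MAC than in CTRL and 0.26 higher under 0.7 MAC than in CTRL. Its groups did not overlap in either comparison. Mt1 was 0.20 higher under 2.0 MAC than in CTRL with overlapping groups, and 0.10 higher under 0.7 MAC than in CTRL without overlap. From 0.7 MAC to 2.0 MAC, what remained was 0.11 for Mt1 and 0.14 for Mt2, with overlapping groups, after a mean marker shift of 0.21. Slc7a11 was lower by this measure in 2.0 MAC than in CTRL (-0.54) and than in 0.7 MAC (-0.32), without overlap, and Gclc was lower in both sevoflurane groups than in CTRL (-0.36 and -0.14), also without overlap. How many of all genes do not overlap by this measure was not counted. Without the subtraction, 18% to 31.3% of all tested genes did not overlap, depending on the comparison. The values relative to the markers carry no test, and the part of astrocyte RNA in the changes of Mt1 and Mt2 was not tested further.

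**Figure D4:**
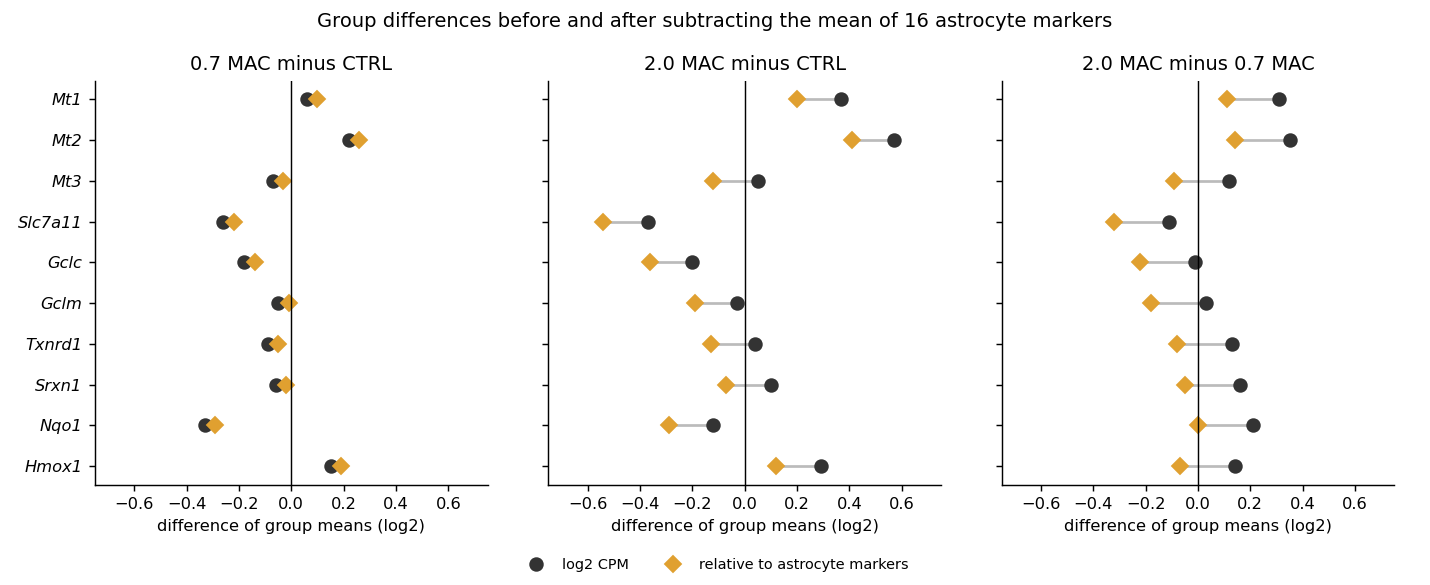
Differences of group means in log2 CPM (dark circles) and after subtracting the mean log2 level of 16 astrocyte markers in each library (orange diamonds), for the 10 genes in 3 comparisons. Against CTRL under 2.0 MAC the subtraction moves Mt2 from 0.57 to 0.41 and Mt1 from 0.37 to 0.20, and moves Slc7a11 from -0.37 to -0.54; between 0.7 MAC and CTRL the mean of the markers differs by -0.04.

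Other cell types moved as well. Oligodendrocyte markers rose in 11 of 12 genes between 2.0 MAC and 0.7 MAC (median log2 fold change 0.49) and fell in 5 of 12 between 0.7 MAC and CTRL (median -0.32), with summed levels of 9980 to 12000 CPM under 2.0 MAC, 7390 to 8700 CPM under 0.7 MAC and 9170 to 10500 CPM in CTRL. Microglia and macrophage markers summed to 238 to 252, 243 to 280 and 269 to 298 CPM in the same order, with 1 of 12 lower between 2.0 MAC and CTRL. Endothelial markers summed to 450 to 500, 399 to 480 and 448 to 489 CPM, with 2 of 12 higher and 2 lower between 2.0 MAC and CTRL. Between 0.7 MAC and CTRL 2 of these 12 fell (median log2 fold change -0.29), and between 2.0 MAC and 0.7 MAC 1 rose (median 0.12). Choroid plexus and ependyma markers summed to 203 to 535, 519 to 816 and 420 to 772 CPM, and 2 of 10 fell between 2.0 MAC and 0.7 MAC, Kl by 0.75 (adjusted p = 0.0216) and Ttr, the transthyretin gene of the choroid plexus, by 0.92 on the log2 scale (adjusted p = 0.0478). Red blood cell markers summed to 5.19 to 22.4, 5.67 to 37.9 and 3.46 to 7.86 CPM. Of the 3 tested, the hemoglobin gene Hba-a2 rose by 2.58 between 0.7 MAC and CTRL (adjusted p = 0.0396) and fell by 1.61 on the log2 scale between 2.0 MAC and 0.7 MAC (adjusted p = 0.0498). The part of these cell types in the values of the 10 genes was not tested.

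Among the genes that control NRF2 targets, Maff, a small MAF partner of NRF2 that is also an early response gene, rose by 2.63 on the log2 scale between 0.7 MAC and CTRL (standard error 0.28, adjusted p = 0.000156) and by 2.74 between 2.0 MAC and CTRL (standard error 0.28, adjusted p = 1.72e-05). It was the only one of 12 regulators that passed the test in these comparisons, and 0 of 12 passed between 2.0 MAC and 0.7 MAC in edgeR or DESeq2, also at an unadjusted p of 0.05. Nfe2l2, which encodes NRF2 itself, had 0.32 (adjusted p = 0.14) between 0.7 MAC and CTRL and 0.23 (adjusted p = 0.2) between 2.0 MAC and CTRL. Of 22 tested further NRF2 targets, 5 rose and 0 fell between 2.0 MAC and 0.7 MAC (median 0.08), 0 passed in edgeR or DESeq2 between 0.7 MAC and CTRL (median -0.07, with 3 lower at an unadjusted p under 0.05), and 1 rose and 2 fell between 2.0 MAC and CTRL (median 0.07). Fth1, the ferritin heavy chain gene, rose by 0.37 against 0.7 MAC (adjusted p = 0.00223) and 0.35 against CTRL (adjusted p = 0.00593). G6pdx and Tkt, genes of the pentose phosphate pathway that yields NADPH, rose by 0.52 (adjusted p = 0.00245) and 0.26 (adjusted p = 0.00358) between 2.0 MAC and 0.7 MAC.

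Of 26 tested genes of glutathione and thioredoxin metabolism, 2 rose and 1 fell between 2.0 MAC and 0.7 MAC (median 0.11), 1 rose between 0.7 MAC and CTRL (median -0.05) and 3 rose between 2.0 MAC and CTRL (median 0.06). Msra, a methionine sulfoxide reductase gene, fell by 0.77 on the log2 scale between 2.0 MAC and 0.7 MAC (adjusted p = 0.000234), and Msrb1, another such gene, rose by 0.53 (adjusted p = 0.0122). Of 9 tested genes of superoxide handling and NADPH oxidase, 0 passed in edgeR or DESeq2 in any comparison, and 1 was higher at an unadjusted p under 0.05 in each comparison with 2.0 MAC. Sod1, the cytosolic superoxide dismutase gene, had 0.18 in both comparisons with 2.0 MAC (adjusted p = 0.0773 and 0.0993).

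Of 17 genes that move zinc and copper, 2 fell in both comparisons with the 2.0 MAC group, 1 rose against CTRL, and 0 passed between 0.7 MAC and CTRL in edgeR or DESeq2, with 1 at an unadjusted p under 0.05. The median log2 fold change of the list was 0 in each comparison. Slc30a3, which loads zinc into synaptic vesicles and is known from forebrain neurons, fell by 1.20 against 0.7 MAC (adjusted p = 0.000165) and by 0.89 against CTRL (adjusted p = 0.00379) on the log2 scale, in the libraries in which cortex and striatum markers fell. Slc39a10, a zinc importer gene, fell by 0.50 (adjusted p = 0.000729) and 0.39 (adjusted p = 0.00816). Atp7a, a copper pump gene, rose by 0.43 against CTRL (adjusted p = 0.0191). Genes known to be induced by glucocorticoids rose in 8 of 15 under 2.0 MAC and in 4 of 15 under 0.7 MAC against CTRL (medians 0.40 and 0.36), and 1 of 15 fell between 2.0 MAC and 0.7 MAC (median 0.04). Cdkn1a, a cell cycle inhibitor gene, rose by 1.34 (adjusted p = 6.41e-06) and 1.05 (adjusted p = 0.000362) in the 2.0 MAC and 0.7 MAC groups against CTRL. Tsc22d3, which encodes the glucocorticoid-induced leucine zipper protein, rose by 0.63 (adjusted p = 0.000423) under 2.0 MAC, and its 0.36 under 0.7 MAC did not pass (adjusted p = 0.0651).

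**Figure D5:**
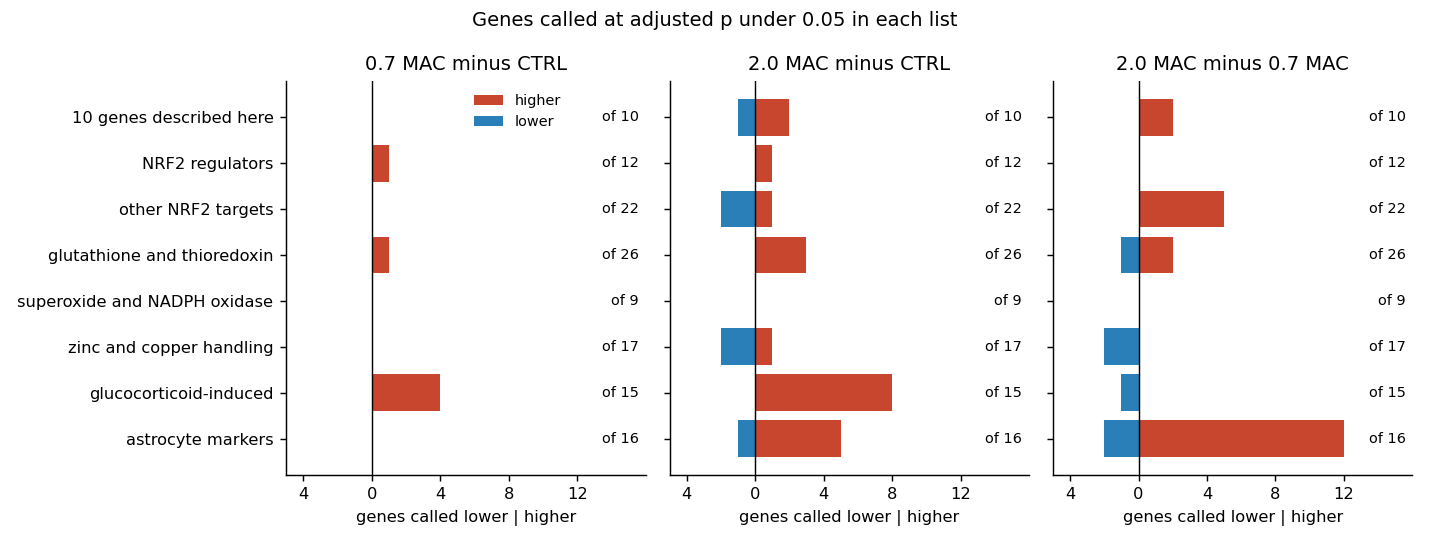
Number of genes that passed an adjusted p of 0.05 in edgeR in each list, to the right of 0 for higher and to the left for lower, in the 3 comparisons; the figure at the right of each row is the number tested. Of the 10 genes 2 were higher and 1 lower between 2.0 MAC and CTRL, and the glucocorticoid-induced list had 8 of 15 higher there and 4 of 15 between 0.7 MAC and CTRL.

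For the 3 genes that passed a test, the genes with the most similar pattern were found by the root mean square difference of centered log2 CPM over the 9 libraries, among the 14134 genes that averaged 1 CPM or more. For Mt1 they were Optn (0.049), Ndufa11 (0.063) and Tmem241 (0.067), where the root mean square deviation of Mt1 from its own mean was 0.179. For Mt2, which deviated from its mean by 0.275, they were Ccdc12 (0.105), Gprin2 (0.105) and Tsc22d3 (0.109). For Slc7a11, at 0.186, they were Rlf (0.084), Lrrc8d (0.086) and Idua (0.089). Mt1 and Mt2 differed from each other by 0.118 by this measure, less than Mt1 or Mt2 differed from any other of the 10 genes.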

How the data were processed

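Exon-based reads per gene were taken as deposited for 9 libraries of 3 groups. The authors mapped rRNA-depleted, strand-specific libraries to GRCm38/mm10 (named in the submitters' processing notes) and counted reads per gene in CLC Genomics Workbench, and they deposited whole-number counts of exon, intron and total gene reads beside RPKM. The sources used here give neither the annotation release nor whether counting used strand. The authors' RPKM counts every exon read, also those that match several places in the genome, whereas the exon-based counts leave most of these out. The table also holds 24 columns of the authors' own comparisons (fold changes and p-values), which were not used, and 128 of 198 columns of per-sample values were not used.

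The counts were fitted with edgeR 4.0.16 (R 4.3.3) using filterByExpr at a minimum count of 10 (14140 genes kept), TMM factors (0.9741 to 1.0172) and 1 quasi-likelihood fit of all 9 libraries with group as the factor. P-values were adjusted by Benjamini and Hochberg's method over all tested genes, and a gene passed at an adjusted p under 0.05. CPM are normalized by the same factors, and levels per kilobase use the exon length in the table. Log2 CPM relative to astrocyte markers used a prior count of 2. Read ratios were compared by two-sided exact permutation tests. The paper's additional threshold, a 2-fold change, was counted beside it. The alternatives were DESeq2 1.42.0, limma 3.58.1 on log2(RPKM + 0.1) and log2(RPKM + 1), upper-quartile scaling, no TMM, no filter, a minimum count of 50, only the 6 libraries compared, a replicate block, total gene, unique gene and intron reads, the 2-fold threshold and fits that each lacked 1 of the 9 libraries. Total exon reads were added after the data were seen. The steps were tested on simulated data.

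The 10 genes and the gene lists were chosen with earlier results of these data known. Besides the 10 genes, the text names at most the 3 genes of each list with the smallest adjusted p in any comparison, and for each gene that passed a test the 3 genes of closest pattern. Gene starts in the table count from 0 and are given here from 1, after comparison with GENCODE M21 (equal in 93.8% of 49326 matched genes, and both ends equal in 9 of the 10, not Txnrd1). Promoter windows were available for 8 of the 10 genes. No 2 libraries of a group were copies of each other (chi-square divided by its degrees of freedom 1.56 to 5).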

Additional observations from a re-analysis of the deposited data

How the results depend on the processing

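Of 648 alternative values of the fold changes, 584 kept their direction and their side of the threshold; in no comparison did a gene that passed the test change direction under an alternative. From 0.7 MAC to 2.0 MAC the number of genes that passed fell from 2 to 1 with a replicate block, with total gene reads and with total exon reads, to 0 with intron reads or a 2-fold threshold, and rose to 4 in limma at both pseudocounts; with 1 library left out it was 0 to 2. Between 0.7 MAC and CTRL it rose from 0 to 1 without a filter and with unique gene reads, and between 2.0 MAC and CTRL it fell from 3 to 0 with intron reads or a 2-fold threshold, and was 2 to 3 with 1 library left out. Mt2 did not pass between 2.0 MAC and 0.7 MAC with the replicate block (adjusted p = 0.0631), total gene reads (0.0504) or total exon reads (0.0638), and Slc7a11 did not pass between 2.0 MAC and CTRL in limma (0.0945 and 0.0943) or with unique gene reads (0.129). Libraries of the same replicate number did not deviate together (correlations of -0.211 to -6.85e-05 in 9 pairs). With groups this small, these correlations cannot show whether the numbers mark a shared day or batch. Apart from Mt2 between 2.0 MAC and 0.7 MAC, the block changed no call.

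The changes of direction lay in genes that did not pass the main test of the comparison concerned. For 2.0 MAC against 0.7 MAC, Gclc (-0.01) was at 0.03 with upper-quartile scaling, 0.02 without TMM, 0.08 and 0.07 in limma, 0.05 with total and with unique gene reads, 0.10 with intron reads and -0.09 to 0.07 with 1 library left out. In the same comparison Gclm was at 0.00 with intron reads, -0.02 with total exon reads and -0.04 to 0.08 with 1 library left out, Slc7a11 at 0.07, 0.08 and 0.28 with total gene, unique gene and intron reads, Mt3 at -0.30 with intron reads and Hmox1 at -0.04 to 0.23 with 1 library left out. Between 0.7 MAC and CTRL, intron reads gave 0.11 for Gclm, 0.12 for Nqo1, 0.02 for Srxn1 and 0.24 for Mt3, unique gene reads gave 0.01 for Gclm, and leaving out 1 library gave -0.14 to 0.01 for Gclm, -0.03 to 0.37 for Hmox1 and -0.01 to 0.10 for Mt1. For 2.0 MAC against CTRL, Gclm was at 0.00 without TMM, 0.01 in both limma fits, 0.07 with unique gene reads, 0.11 with intron reads and -0.11 to 0.03 with 1 library left out. There Nqo1, Txnrd1 and Mt3 were at 0.16, -0.04 and -0.06 with intron reads, and Nqo1 was at -0.22 to 0.03 and Txnrd1 at -0.01 to 0.09 with 1 library left out. The cause of these changes was not tested.

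The Gclm to Gclc log2 ratio between 2.0 MAC and 0.7 MAC was -0.04 with total gene reads, -0.01 from RPKM and -0.03 to 0.14 with 1 library left out, and between 0.7 MAC and CTRL -0.01 to 0.20 with 1 left out. The Mt2 to Mt1 ratio between 2.0 MAC and 0.7 MAC was -0.04 to 0.09 with 1 left out. Relative to oligodendrocyte markers in place of astrocyte markers, all 10 genes were lower under 2.0 MAC than under 0.7 MAC, Mt1 by -0.17, Mt2 by -0.13, Mt3 by -0.36, Slc7a11 by -0.59, Gclc by -0.49, Gclm by -0.45, Txnrd1 by -0.36, Srxn1 by -0.32, Nqo1 by -0.27 and Hmox1 by -0.34 on the log2 scale. By the same measure, values between 0.7 MAC and CTRL were 0.38 for Mt1, 0.54 for Mt2, 0.25 for Mt3, 0.06 for Slc7a11, 0.14 for Gclc, 0.27 for Gclm, 0.23 for Txnrd1, 0.26 for Srxn1, -0.01 for Nqo1 and 0.47 for Hmox1. Over 48 counts in 16 gene lists, DESeq2 called fewer genes than edgeR in 17, more in 5 and as many in 26. Counts more than 1.5 times apart, with DESeq2 first, were, between 2.0 MAC and 0.7 MAC, 3 against 5 further NRF2 targets, 1 against 3 glutathione and thioredoxin genes, 0 against 2 choroid plexus and ependyma markers and 0 against 1 glucocorticoid-induced gene, endothelial marker and red blood cell marker each. Between 2.0 MAC and CTRL they were 1 against 3 in the first pair of these lists, 5 against 8 glucocorticoid-induced genes and 2 against 1 oligodendrocyte marker. Between 0.7 MAC and CTRL they were 8 against 5 oligodendrocyte markers, 2 against 1 hindbrain marker, 1 against 2 endothelial markers, 0 against 2 cortex and hippocampus markers and 0 against 1 red blood cell marker.

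With 3 libraries a group, Hmox1 and Nqo1 at 15 to 41 reads per library carry wide intervals, from -0.28 to 0.83 for Hmox1 between 2.0 MAC and CTRL. Gclm values rest on the minority of its reads that match 1 place in the genome.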
